A study of Mus musculus with 46 samples.

Results

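Infarct tissue of MRL/MpJ (MRL) mice was compared with infarct tissue of C57BL/6J (C57) mice 5 days after the left coronary artery was tied off. The comparison holds 8 of the 46 arrays of the series, 4 per strain, chosen by their labels. All mice were males of 15 to 20 weeks, and the operated hearts shared isoflurane anesthesia, a left coronary ligation and buprenorphine. The tissue came from the infarct and border region of the left ventricle, cut out with a biopsy punch, and RNA was hybridised to MOE430A arrays. The same region was also taken from MRL and C57 hearts at day 0, where no surgery was done (4 MRL and 3 C57 arrays), and at day 1 (4 each), and the remaining left ventricle at day 5 gave the noninfarct arrays (4 each). The replicates are labelled biological, and the arrays measure whole tissue, in which fewer cells of a type and less RNA per cell cannot be told apart.

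At this stage of healing, dead heart muscle is being cleared by macrophages while fibroblasts lay down a collagen scar. Interferons are secreted signals that switch on a common set of antiviral genes through receptors and STAT and IRF transcription factors, and macrophages of the infarct are a known source of such genes. MRL mice are known for unusually complete closure of ear wounds, and the comparison addresses whether their infarct tissue differs from that of a common laboratory strain.

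One library on each side of the day 5 tissue went against its label. To check the strain labels, 68 probe sets were taken whose day 0 and day 1 arrays did not overlap between strains and whose means differed by over 1 log2 unit, and were then read in the day 5 arrays. In the library labelled MRL day 5 infarct replicate 3, 5 of them were nearer the MRL level, while MRL replicates 1, 2 and 4 had 51, 51 and 53, and C57 replicates 1 to 4 had 5, 14, 13 and 9. In the library labelled C57 day 5 noninfarct replicate 3, 50 of 68 were nearer the MRL level, against 2 to 3 in the other C57 noninfarct arrays. The MRL noninfarct arrays had 63 to 67. The same libraries stood apart in tissue genes. Lgals3, a galectin of macrophages, was at log2 intensity 7.96 in the library labelled MRL day 5 infarct replicate 3, against 12.12 to 12.78 in the other MRL infarct arrays and 10.38 to 12.33 in the C57 ones. It was at 12.27 in the library labelled C57 day 5 noninfarct replicate 3, against 5.73 to 9.63 in the others of that group. Both libraries stayed in the groups their labels give, and the day 5 infarct differences are given with and without the library labelled MRL day 5 infarct replicate 3, called replicate 3 below. C57 infarct replicate 1 carried the strain genes of its label but had the lowest Lgals3 of its group (10.38) and the highest Myh6, the alpha myosin heavy chain gene of heart muscle (15.20, against 13.87 to 14.26).

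**Figure D1:**
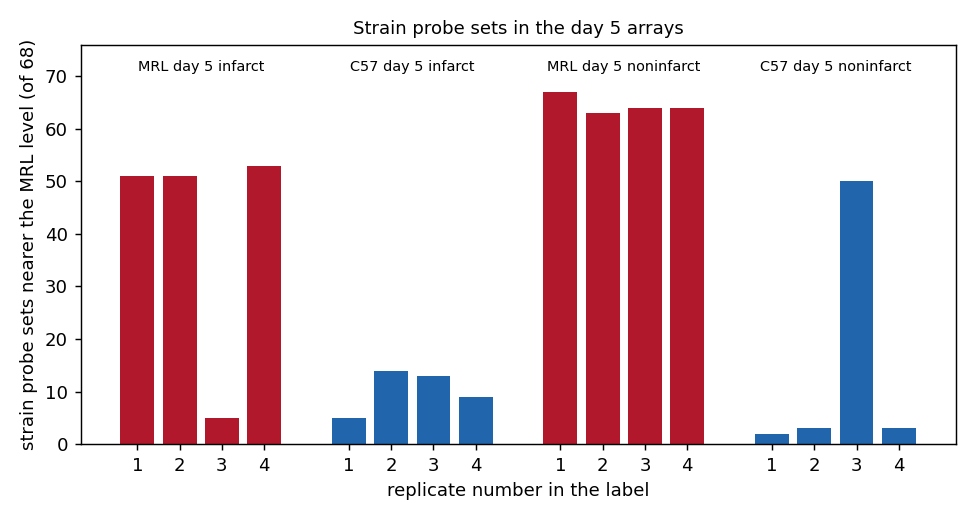
Number of the 68 strain probe sets that lay nearer the MRL level in each day 5 array, by the replicate number in its label (red bars MRL, blue bars C57). The library labelled MRL infarct replicate 3 stands at 5, at the height of the C57 arrays. The library labelled C57 noninfarct replicate 3 stands at 50, near the other MRL infarct arrays (51, 51 and 53) and below the MRL noninfarct arrays (63 to 67).

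With all 8 arrays, 88 of 12834 tested probe sets differed between the strains (0.686%; 23 or 0.179% higher and 65 or 0.506% lower in MRL; limma adjusted p under 0.05, fitted on all 23 infarct arrays). Without replicate 3, 310 did (2.42%; 165 or 1.29% higher and 145 or 1.13% lower). Among 7608 genes, each read through its brightest tested probe set, 56 were called with all arrays (0.736%; 17 or 0.223% higher, 39 or 0.513% lower) and 187 without replicate 3 (2.46%; 110 or 1.45% higher, 77 or 1.01% lower). The fit on the 8 arrays of the comparison alone called 0 probe sets, with 543 at an unadjusted p under 0.05, and the same fit without replicate 3 called 167. As a measure of RNA quality, the 3' minus 5' log2 signal of Gapdh was -0.11, -0.00, -0.13 and -0.13 in MRL replicates 1 to 4 and -0.08, 0.73, 0.15 and 0.03 in C57, so C57 replicate 2 was the highest. Leaving it out gave 62 calls, and leaving out replicate 3 as well gave 354, of which 270 were among the 310. The groups did not overlap in 213 genes with 4 against 4 arrays (2.8% of genes) and in 863 with 3 against 4 (11.3%). Differences are MRL minus C57 in log2 intensity, given ± SE. Differences of genes that lie below the array median in a strain shrink when an offset of 32 is added before log2: of 64 named genes called without replicate 3, 36 shrank by over 1.5 times, 0 changed direction and 2 lost their call. Such values are given below as offset values, all without replicate 3.

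Genes of the interferon response were lower in MRL infarct tissue. Of 32 tested members of the list, 8 were called lower with all arrays and 12 without replicate 3, and none was called higher, where 0.513% and 1.01% of all genes were called lower. The median difference of the list was -1.14 with all arrays and -1.37 without replicate 3, against -0.01 for all genes in both fits, and 30 of 32 members were negative in each. Without replicate 3 and C57 replicate 1 the list had 11 members called lower (1.26% of all genes) and a median of -1.38. Without replicate 3 the 12 were Rsad2, Oasl2, Usp18, Ifit1, Ifit2, Ifit3, Oasl1, Oas1a, Ifih1, Ifi27l2a, Trim30a and Irgm2. The calls of Ifit1 and Trim30a ended in 3 and 5 of the 7 fits that left out 1 further array, with adjusted p up to 0.21 and 0.2, and that of Oas1a in 1.

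Promoters of 3 members called lower that held a match are shown because the list groups genes by the signal that induces them. The capitals mark a motif of 10 letters, 2 copies of GAAA with any 2 bases between them or the same of TTTC on the other strand, a core shared by interferon-stimulated response elements, searched on both strands from 250 bases before to 50 bases after the annotated start (RefSeq, GRCm38.p6). Of the 12 genes, 10 had a promoter in the table and 7 of these held a match, while 3.99% of all 27025 genes in the table did. The list was made of interferon-response genes, so a high share was likely from the start and says nothing about the strain difference. Members of the list that were not called were not counted. Oasl1, Oasl2 and Ifit2 held none. A match describes the letters and is not evidence that a factor binds there.
Rsad2 (chr12:26456403-26456702, minus strand): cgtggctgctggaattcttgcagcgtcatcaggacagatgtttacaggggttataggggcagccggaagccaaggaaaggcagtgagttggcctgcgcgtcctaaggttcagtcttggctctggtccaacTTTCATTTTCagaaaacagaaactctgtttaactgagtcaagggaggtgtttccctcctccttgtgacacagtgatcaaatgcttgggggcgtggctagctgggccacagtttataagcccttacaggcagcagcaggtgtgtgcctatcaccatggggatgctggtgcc
Ifit3 (chr19:34583279-34583578, plus strand): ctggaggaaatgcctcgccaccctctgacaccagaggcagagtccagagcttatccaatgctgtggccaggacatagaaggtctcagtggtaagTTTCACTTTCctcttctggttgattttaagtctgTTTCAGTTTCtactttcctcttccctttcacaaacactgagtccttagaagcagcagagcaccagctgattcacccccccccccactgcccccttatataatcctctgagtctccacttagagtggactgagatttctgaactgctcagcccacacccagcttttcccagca
Ifit1 (chr19:34640639-34640938, plus strand): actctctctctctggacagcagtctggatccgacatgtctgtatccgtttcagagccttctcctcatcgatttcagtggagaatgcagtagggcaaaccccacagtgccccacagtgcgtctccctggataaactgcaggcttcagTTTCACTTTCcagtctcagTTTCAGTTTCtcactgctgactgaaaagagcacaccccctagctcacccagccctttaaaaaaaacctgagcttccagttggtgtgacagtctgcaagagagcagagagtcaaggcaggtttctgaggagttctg

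Rsad2, which encodes the antiviral enzyme viperin, had log2 intensities of 5.25, 5.71, 7.81 and 5.86 in MRL replicates 1 to 4, against 8.41, 8.57, 8.39 and 8.17 in C57. The groups did not overlap, and replicate 3 was the MRL array closest to C57. The difference was -2.22 ± 0.44 (adjusted p 0.014) with all arrays and -2.77 ± 0.36 without replicate 3 (adjusted p 4.3e-05), a 6.84-fold lower intensity. Oasl2, a gene of the oligoadenylate synthetase family, stood at 3.29, 4.45, 5.98 and 4.69 in MRL and at 6.14, 7.11, 7.20 and 7.09 in C57, again without overlap (-2.28 ± 0.48, adjusted p 0.023; -2.74 ± 0.45 without replicate 3, adjusted p 0.00068). Usp18, a protease that removes the interferon-induced modifier ISG15, stood at 2.77, 2.76, 5.56 and 3.84 in MRL and at 5.87, 5.71, 5.36 and 6.40 in C57. Here replicate 3 lay inside the C57 range and the other MRL arrays below it (-2.10 ± 0.47, adjusted p 0.035; -2.71 ± 0.37 without it, adjusted p 6.6e-05). Ifit3, an RNA-binding antiviral protein gene, followed the same pattern, at 4.96, 5.37, 7.56 and 5.56 in MRL and 7.62, 7.51, 7.96 and 8.45 in C57 (-2.02 ± 0.47, adjusted p 0.046; -2.59 ± 0.39 without replicate 3, adjusted p 0.00022). The offset values were -1.58 for Oasl2 and -1.13 for Usp18, both called.

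**Figure D2:**
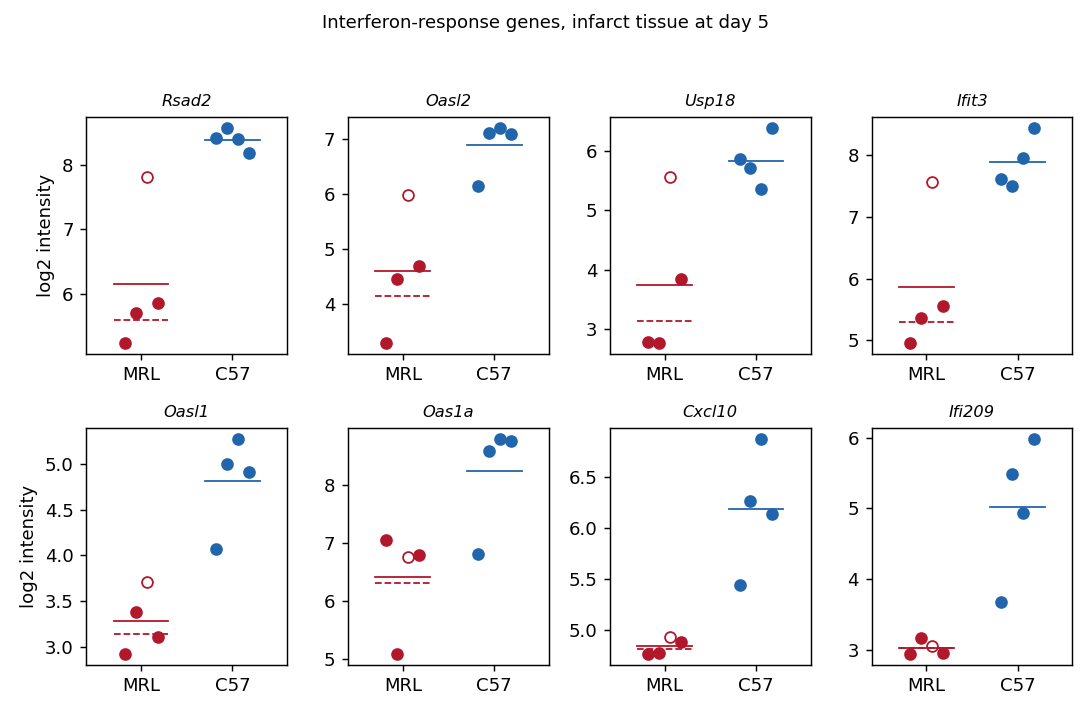
Log2 intensity of 8 interferon-induced genes in each day 5 infarct array (MRL red, C57 blue; the open circle is the library labelled MRL replicate 3). Solid lines are means of 4 arrays and the dashed line is the MRL mean without replicate 3. In Rsad2, Oasl2, Oasl1, Cxcl10 and Ifi209 all 4 MRL arrays lie below all 4 C57 arrays.

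Oasl1, a relative of Oasl2, had the smallest SE among the called members of the list shown here. It stood at 2.92, 3.38, 3.71 and 3.10 in MRL, against 4.07, 5.00, 5.28 and 4.91 in C57 (-1.54 ± 0.21, adjusted p 0.00026; -1.68 ± 0.21 without replicate 3, adjusted p 3.2e-05). Oas1a, an oligoadenylate synthetase that senses double-stranded RNA, had 7.05, 5.09, 6.76 and 6.79 in MRL and 6.81, 8.58, 8.80 and 8.75 in C57, so C57 replicate 1 lay among the MRL arrays. Its call (-1.81 ± 0.39, adjusted p 0.028; -1.93 ± 0.42 without replicate 3, adjusted p 0.013) ended without replicate 3 and MRL replicate 2 (adjusted p 0.12). Outside the list, the interferon-induced chemokine gene Cxcl10 stood at 4.76, 4.77, 4.93 and 4.88 in MRL and at 5.44, 6.27, 6.88 and 6.14 in C57, without overlap (-1.35 ± 0.21, adjusted p 0.0015; -1.38 ± 0.23 without replicate 3, adjusted p 0.00085). Ifi209, of the interferon-inducible HIN-200 family, was also lower (-1.99 ± 0.34, adjusted p 0.0027; -2.00 ± 0.37 without replicate 3, adjusted p 0.0022). Its relative Ifi202b went the other way: 6.55, 7.49, 3.04 and 7.07 in MRL, against 3.18, 3.06, 3.18 and 3.04 in C57 (2.92 ± 0.59, adjusted p 0.016; 3.92 ± 0.27 without replicate 3, adjusted p 4e-09). The offset values were -0.58 for Oasl1, -0.82 for Cxcl10, -0.75 for Ifi209 and 2.01 for Ifi202b, all called.

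The lower interferon-response genes were partly present before infarction. At day 0, 4 of the 32 members were called lower (0.394% of all genes) and the median difference was -0.47, against 0.03 for all genes, and Rsad2 was among those called (-2.01, adjusted p 0.039; -1.98 at day 1, adjusted p 0.03). At day 1, 2 of the 32 were called lower (40 of all 7608 genes), with a median of -0.23. In noninfarct tissue at day 5, 3 of 28 tested members were called lower with all arrays (26 of all 7322 genes), with a median of -0.60. Without the library labelled C57 noninfarct replicate 3, 8 of 28 were (102 of all 7322 genes), with a median of -0.62. Oasl1 showed -0.07 at day 0 and -0.07 at day 1. The difference between its day 5 and day 0 strain differences was -1.61 without replicate 3 (adjusted p 0.0099), the one member of the list for which that test was called. The day 5 and day 0 strain differences share no arrays, but each fit estimates 1 spread over all its infarct arrays.

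Antigen presentation genes of class I were lower in MRL in 3 of 10 tested members with and without replicate 3, where 0.513% and 1.01% of all genes were called lower. H2-K1, a class I heavy chain gene, stood at 5.22, 4.92, 8.81 and 5.26 in MRL and at 9.87, 9.76, 9.30 and 9.58 in C57 (-3.57 ± 0.56, adjusted p 0.0014; -4.49 ± 0.29 without replicate 3, adjusted p 1.2e-09). It was lower at day 0 as well (-2.84, adjusted p 0.016). Over the day 0 and day 1 arrays of both regions, this probe set averaged 5.20 in MRL and 8.09 in C57. H2-D1, another class I heavy chain gene, was read by 5 tested probe sets that disagreed: the representative one was lower in MRL (-4.20 ± 0.52, adjusted p 0.00011; -5.09 ± 0.22 without replicate 3, adjusted p 3.9e-12), and 1 was higher (4.47, adjusted p 0.0083; 5.99 without replicate 3, adjusted p 1e-12). That one stood at 10.72, 10.83, 4.79 and 11.02 in MRL, against 4.87, 4.83, 5.01 and 4.77 in C57. For neither H2-K1 nor H2-D1 were the probe sequences compared with the MRL genome here, so whether they match both strains equally was not tested. H2-M3, a nonclassical class I gene, was lower at day 5 (-1.67 ± 0.23, adjusted p 0.00028; -1.83 ± 0.24 without replicate 3, adjusted p 3.8e-05; offset value -0.70) and not called at day 0 (-0.43, adjusted p 0.96). None of 8 tested class II presentation genes was called at day 5 in either fit, and H2-Aa had -1.44 (adjusted p 0.68), H2-Eb1 -1.62 (adjusted p 0.14) and H2-Ab1 -1.46 (adjusted p 0.17) with all arrays. Without replicate 3 they had -1.12, -1.30 and -1.19.

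The called difference with the lowest adjusted p over all arrays among the named genes was a fall of Fcgr4, an activating receptor for IgG on monocytes and macrophages. It stood at 3.35, 3.46, 2.33 and 2.90 in MRL, against 5.47, 6.72, 6.62 and 7.15 in C57. No array overlapped, and the MRL arrays lay below the array median, so the size of the difference is not exact (-3.48 ± 0.27, adjusted p 2.3e-07; -3.26 ± 0.26 without replicate 3, adjusted p 4.7e-08; offset value -1.58, adjusted p 5.3e-06). Ms4a4c, a membrane protein gene of the MS4A family, stood at 3.09, 3.38, 3.14 and 3.22 in MRL and at 4.50, 6.67, 6.40 and 5.99 in C57 (-2.68 ± 0.30, adjusted p 3.4e-05; -2.66 ± 0.33 without replicate 3, adjusted p 2.5e-05; offset value -1.20). Kcnj15, an inward rectifier potassium channel gene, was lower by the same pattern (-1.98 ± 0.23, adjusted p 4e-05; -1.98 ± 0.25 without replicate 3, adjusted p 3.2e-05; offset value -0.81), with all 4 MRL arrays at 3.20 to 3.65 and C57 at 4.36 to 5.97. None of the 3 differed at day 0 (-0.02, -0.06 and -0.05), and their strain difference at day 5 differed from that at day 0 in the test of that difference without replicate 3 (Fcgr4 -3.23, adjusted p 3.2e-05; Ms4a4c -2.60, adjusted p 0.006; Kcnj15 -1.93, adjusted p 0.008).

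Matrix genes were mostly not called. Of 24 tested members of the fibrillar collagen list, 1 was called lower in both fits (of all genes, 0.513% with all arrays and 1.01% without replicate 3), and the list's median was -0.23 with all arrays and 0.14 without replicate 3. It was Pcolce2, an enhancer of procollagen C-proteinase, at 4.51, 3.69, 5.96 and 3.98 in MRL and 6.04, 6.61, 7.21 and 6.76 in C57 (-2.12 ± 0.44, adjusted p 0.019; -2.60 ± 0.39 without replicate 3, adjusted p 0.00022; offset value -1.45). Its difference in infarct tissue differed from that in noninfarct tissue by -2.65 without both libraries labelled replicate 3 (adjusted p 0.0017). Comp, a matrix glycoprotein that binds collagen, was the 1 called lower of 30 wound matrix genes in both fits, against the same shares of all genes (-1.53 ± 0.26, adjusted p 0.0024; -1.69 ± 0.26 without replicate 3, adjusted p 0.00037). Col1a1 had 15.11, 14.82, 13.26 and 14.75 in MRL, against 14.28, 14.62, 14.50 and 14.91 in C57, overlapping groups, and was not called (-0.09, adjusted p 1; 0.32 without replicate 3, adjusted p 0.92). Col3a1, Postn, Tnc and Fn1 were not called in either fit.

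Ctsk, Mmp9 and Acp5 stood higher in MRL replicates 1, 2 and 4 than in C57. Among 26 tested matrix proteases and inhibitors, none was called with all arrays and 2 were called higher without replicate 3, where 1.45% of all genes were. Ctsk, the collagen-degrading cathepsin K, stood at 9.84, 9.48, 5.02 and 9.76 in MRL, against 5.93, 7.40, 6.35 and 7.42 in C57. Without replicate 3 the groups did not overlap, and with it that library was the lowest of all 8 (1.75 ± 0.68, adjusted p 0.56; 2.92 ± 0.28 without it, adjusted p 5.7e-07). Mmp9, gelatinase B, had 7.44, 5.53, 3.63 and 6.76 in MRL and 3.78, 3.75, 3.86 and 3.47 in C57 (2.13 ± 0.52, adjusted p 0.073; 2.86 ± 0.38 without replicate 3, adjusted p 4.5e-05). Acp5, the tartrate-resistant acid phosphatase of osteoclasts and some macrophages, stood at 8.86, 8.89, 4.35 and 9.25 in MRL and 5.32, 6.54, 5.90 and 6.82 in C57 (1.69 ± 0.66, adjusted p 0.59; 2.85 ± 0.24 without it, adjusted p 1e-07). Without replicate 3 and C57 replicate 1 the differences were 2.64 for Ctsk (adjusted p 3.7e-07), 2.88 for Mmp9 (adjusted p 0.00015) and 2.58 for Acp5 (adjusted p 2.5e-08). The offset value of Mmp9 was 1.54.

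**Figure D3:**
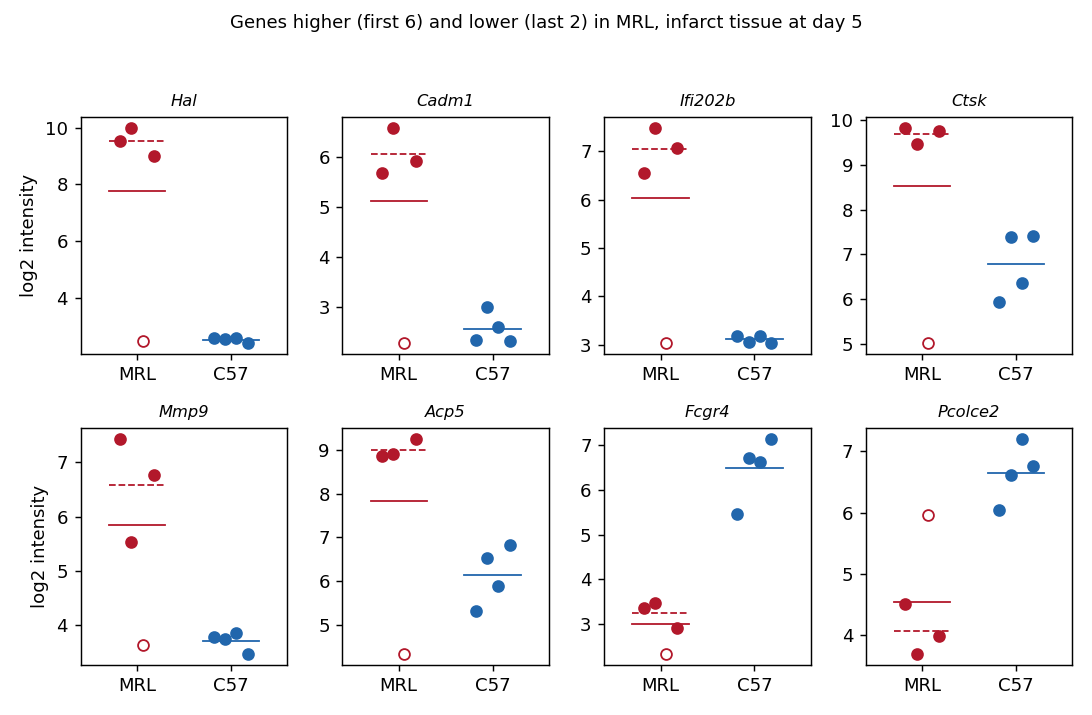
Log2 intensity of 6 genes higher and 2 genes lower in MRL in each day 5 infarct array (MRL red, C57 blue; the open circle is the library labelled MRL replicate 3; solid lines are 4-array means and the dashed line is the MRL mean without replicate 3). MRL replicates 1, 2 and 4 of Hal stand at 9.0 to 10, and replicate 3 at 2.5, among the C57 arrays at 2.43 to 2.60.

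The largest rise was that of Hal, histidine ammonia-lyase, which starts the breakdown of histidine. It stood at 9.53, 10, 2.5 and 9.0 in MRL, against 2.59, 2.57, 2.60 and 2.43 in C57 (5.21 ± 1.01, adjusted p 0.012; 6.96 ± 0.41 without replicate 3, adjusted p 4e-10; offset value 4.33, since all C57 arrays lay below the array median). Cadm1, an adhesion molecule gene, had 5.67, 6.58, 2.28 and 5.92 in MRL and 2.34, 3.00, 2.60 and 2.31 in C57 (2.55 ± 0.54, adjusted p 0.024; 3.50 ± 0.21 without it, adjusted p 5.9e-10; offset value 1.39). Other genes called higher were Cfi, a complement inhibitor (1.84 ± 0.38, adjusted p 0.02; 2.5 ± 0.14 without replicate 3, adjusted p 3.3e-10; offset value 0.66), and Hpgd, which inactivates prostaglandins (1.78 ± 0.41, adjusted p 0.049; 2.47 ± 0.20 without replicate 3, adjusted p 6.7e-08; offset value 0.90). With all arrays the offset ended the call of Hpgd (adjusted p 0.058). Without replicate 3, Il1rn, the interleukin 1 receptor antagonist, had 1.59 ± 0.30 (adjusted p 0.003) and the chemokine gene Cxcl14 1.96 ± 0.43 (adjusted p 0.012), and neither was called with all arrays (1.08, adjusted p 0.45; 1.24, adjusted p 0.8). The offset value of Il1rn was 0.55. The call of Cxcl14 also ended without MRL replicate 4 (adjusted p 0.06). The monocyte and macrophage list had no member called with all arrays and 1 of 39 called higher without replicate 3, where 1.45% of all genes were: Folr2, a folate receptor of tissue macrophages (1.82 ± 0.43, adjusted p 0.021; offset value 1.09), whose call ended in 2 of the 7 fits that left out 1 further array. That list's median difference was -0.35 with all arrays, 0.22 without replicate 3 and -0.13 without replicate 3 and C57 replicate 1, where again 1 member was called higher, against 1.18% of all genes.

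The median level of the macrophage list moved with the libraries that stood apart. It was 8.89, 9.70, 6.48 and 9.29 in MRL replicates 1 to 4, against 7.99, 9.44, 8.99 and 9.27 in C57, so replicate 3 was lowest in MRL and replicate 1 lowest in C57. The sarcomere list ran the other way, at 11.93, 11.27, 12.93 and 11.67 in MRL and 12.41, 11.40, 11.86 and 11.52 in C57. The interferon list was at 4.96, 5.38, 6.12 and 5.82 in MRL and 6.35, 6.79, 7.00 and 7.06 in C57, without overlap between the labelled groups. The 6.12 belongs to replicate 3, whose strain genes lay nearer the C57 level, so it does not show a separation by strain. Of 28 sarcomere genes 0 were called in either fit by limma, with a median difference of -0.02 with all arrays and -0.38 without replicate 3, where 28 of 28 were negative, and -0.16 without C57 replicate 1 as well, where 19 were. The part of the tissue mix in the results was not tested.

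**Figure D4:**
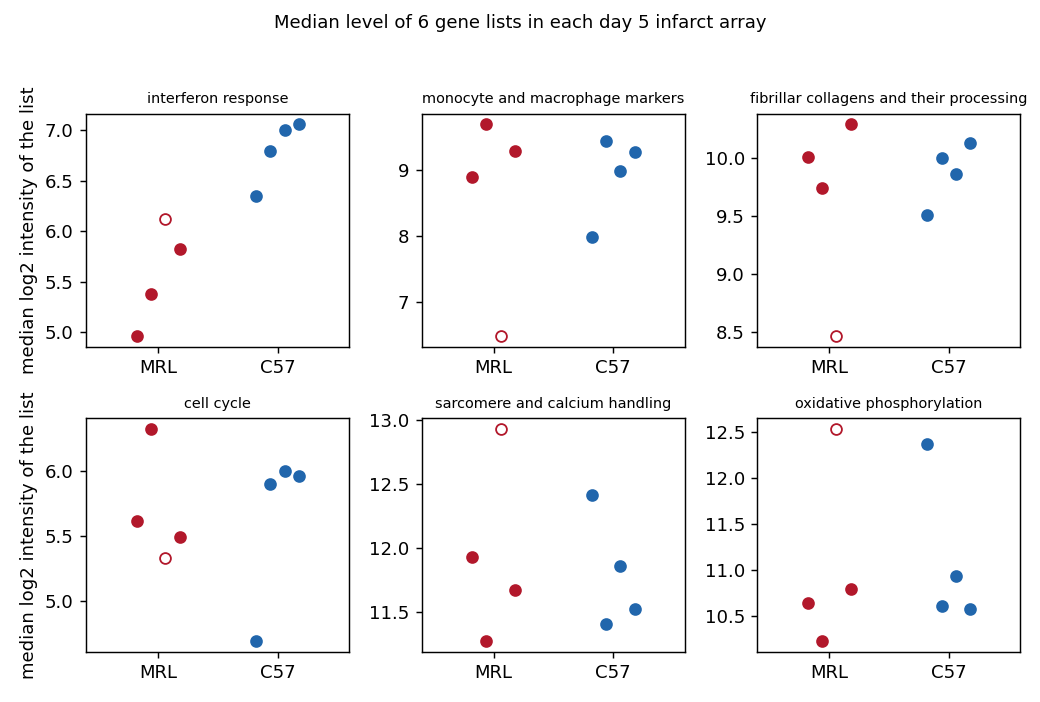
Median log2 intensity of 6 gene lists in each day 5 infarct array (MRL red, C57 blue; the open circle is the library labelled MRL replicate 3). The interferon list lies between 4.96 and 6.12 in the arrays labelled MRL and between 6.35 and 7.06 in C57, without overlap. The 6.12 is the library labelled MRL replicate 3.

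Of the 310 probe sets called without replicate 3, 47 were also called in the same direction at day 0, where 1.07% of probe sets were called. The number was 58 at day 1 (0.997% called) and 153 in noninfarct tissue at day 5 without the library labelled C57 replicate 3 (3.88% called, and 1.25% with it). Only 255 of the 310 were tested in noninfarct tissue, and 55 were not. None was called in the opposite direction, and of the 255, 98 were called in none of the 3. The day 0 and day 1 calls used here came from the fit with replicate 3, whose estimate of the spread includes that library. Without it, 187 probe sets were called at day 0 and 183 at day 1, and the overlap with these was not counted. The infarct and noninfarct comparisons share no arrays but may share hearts. Alad, the heme synthesis enzyme delta-aminolevulinate dehydratase, was higher at every time: 8.45, 8.75, 7.53 and 8.72 in MRL infarct tissue at day 5 against 6.66, 5.87, 6.58 and 6.08 in C57 (2.06 ± 0.28, adjusted p 0.00024; 2.34 ± 0.26 without replicate 3, adjusted p 5.4e-06), with 2.45 at day 0 (adjusted p 6.8e-05) and 2.58 at day 1 (adjusted p 1.3e-05). Glo1, glyoxalase 1, which detoxifies methylglyoxal, was likewise higher (1.20 ± 0.21, adjusted p 0.0048; 1.35 ± 0.22 without replicate 3, adjusted p 0.00052; 1.53 at day 0, adjusted p 0.00073). Stk25, a protein kinase gene, and Rpgrip1, a gene of the photoreceptor cilium, had lower signals at each time. Over the day 0 and day 1 arrays of both regions, Stk25 averaged 2.68 in MRL and 5.87 in C57. Rpgrip1 averaged 3.08 in MRL and 7.36 in C57. Whether the probes of these genes match both strains equally was not tested. Stk25 had -2.73 ± 0.50 at day 5 (adjusted p 0.0059; -3.56 ± 0.25 without replicate 3, offset value -1.40), -3.09 at day 0 and -2.80 at day 1, and Rpgrip1 had -3.89 ± 0.66 (adjusted p 0.0026; -5.00 ± 0.31 without replicate 3, offset value -2.82), -3.46 and -4.78.

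Other strain differences appeared by day 5. Cadm1 had -0.02 at day 0 and 0.16 at day 1, Acp5 -0.10 and 0.00, and Mmp9 0.05 and -0.51, none called. In the test of day 5 against day 0 without replicate 3, 74 probe sets were called (0.577%), among them Cadm1 (3.51, adjusted p 5.6e-07), Acp5 (2.96, adjusted p 3.2e-05), Mmp9 (2.82, adjusted p 0.01) and Hal (5.88, adjusted p 5.8e-06). With all arrays that test called 20 (0.156%). The test of day 5 against day 1 called 7 with all arrays (0.0545%) and 49 without replicate 3 (0.382%), and the test of infarct against noninfarct tissue called 18 (0.137%) and, without both libraries labelled replicate 3, 37 (0.282%). A strain difference of Il15, an interleukin that sustains lymphocytes, was present at day 0 (-3.79, adjusted p 0.00019) and not called at day 5 (0.16 with all arrays, -0.50 without replicate 3, adjusted p 1 and 0.71), and the test of the change was called (3.28 without replicate 3, adjusted p 0.00093). Il15 stood at 3.52, 3.59, 6.38 and 4.05 in MRL infarct tissue at day 5 and at 5.24, 3.62, 3.74 and 4.29 in C57. Its means over the day 0 and day 1 arrays of both regions were 3.70 in MRL and 6.41 in C57, so the lower level at day 5 was that of C57. Pttg1, securin, had -4.10 at day 0 (adjusted p 2.5e-06) and at day 5 -0.90 with all arrays (adjusted p 0.64) and -1.33 ± 0.31 without replicate 3 (adjusted p 0.019), a call that ended in 3 of the 7 fits that left out 1 further array. Its test of day 5 against day 0 was called (2.78 without replicate 3, adjusted p 0.0018).

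**Figure D5:**
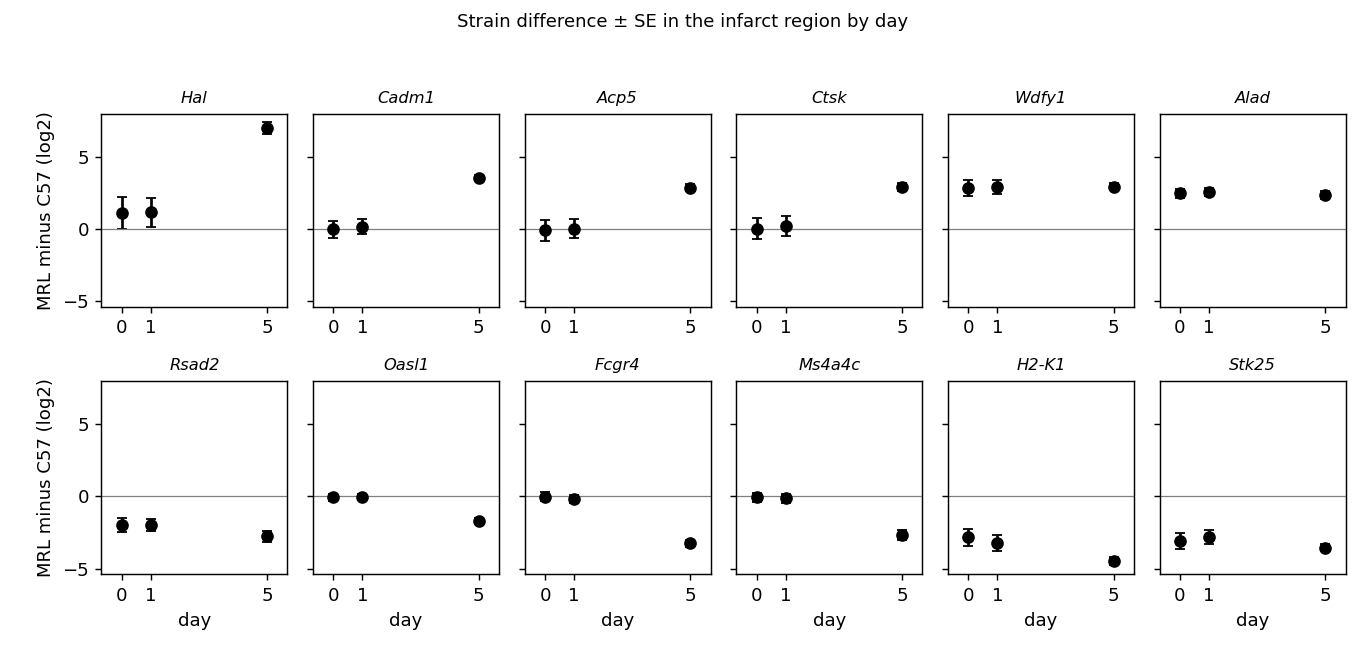
MRL minus C57 difference ± SE in the infarct region at days 0, 1 and 5 for 12 genes, in log2 units (days 0 and 1 from the fit on all infarct arrays, day 5 from the fit without the library labelled MRL replicate 3). Cadm1, Acp5, Oasl1, Fcgr4 and Ms4a4c lie near 0 at days 0 and 1 and away from it at day 5, and Wdfy1, Alad, H2-K1 and Stk25 differ on all 3 days.

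No member of the cell cycle and cell cycle inhibitor lists and no natriuretic peptide gene was called with all arrays. Outside these lists, the condensin subunit gene Ncapg2 was called lower with all arrays, without overlap. Without replicate 3 its difference was -2.36 (offset value -1.43), and the call held in all 7 fits that left out 1 further array. Pttg1, described above, is also outside these lists. Of 39 genes of the cell cycle list, 1 was called higher without replicate 3, where 1.45% of all genes were. It was the mitotic checkpoint kinase gene Bub1b (1.18 ± 0.31, adjusted p 0.044). That call ended in 4 of the 7 fits that left out 1 further array, among them that without C57 replicate 1 (0.84, adjusted p 0.11). In that fit 0 of the 39 cell cycle genes were called higher and 2 lower, against 1.18% and 1.26% of all genes. The inhibitor gene Cdkn1a had 8.16, 8.41, 8.72 and 8.50 in MRL, against 8.45, 8.52, 8.56 and 9.33 in C57, and was not called (-0.27, adjusted p 1; -0.36 without replicate 3, adjusted p 0.92). Nppa, atrial natriuretic peptide, was not called either (0.37, adjusted p 1; 0.45 without replicate 3, adjusted p 0.86).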

How the data were processed

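The authors deposited linear intensity values made with GCRMA (version not given in the sources used here), a method that corrects background, normalizes and summarises probes, as the submitters' processing notes name it. They were taken to log2 with no pseudocount. Of 22690 probe sets, 64 controls were left out and those above the array median in at least 3 of the arrays of a fit were tested. The two-sided tests were eBayes tests of limma 3.58.1 (R 4.3.3), with p-values adjusted by Benjamini-Hochberg and a threshold of 0.05, with 1 mean per group over the 23 infarct arrays, or over all 46 for the test between regions. The probe set brightest on average stood for a gene. Named genes were the 15 largest called rises and falls without overlap, up to 6 called members of a described list, index genes, and up to 5 rises and 5 falls called in the tests between days or regions or only without the library labelled MRL day 5 infarct replicate 3. The strain check, the 15 largest rises and falls without that library, and up to 6 members of each list called without it were added after seeing the data. The members and gene lists were chosen with earlier results of these data known. The fit was tested on simulated data with 200 changed probe sets, in which 44 of 50 changes of 2 log2 units were called. Of 50 changes of 1 log2 unit, 26 were called, and 7 calls were false. The simulated noise was drawn independently for each array, so the simulation held no library that stood apart. The number of arrays limits the precision.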

Additional observations from a re-analysis of the deposited data

Results flagged for a closer look

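In many named genes the library labelled MRL day 5 infarct replicate 3 was far from the other 3 MRL arrays. Its gap to the nearest array took more of the group's range than Dixon's 95% critical value for 4 samples. Chance alone does so in about 1 of 20 groups, but that rate does not apply to this set. Many of these genes were named because they were called without this library, a choice that favours genes in which it stands apart. Its log2 intensity was low for Acp5 at 4.35 (the others 8.86 to 9.25), Cfi at 2.03 (the others 4.61 to 4.86), Clca3a1 at 2.96 (the others 7.61 to 8.49), Col3a1 at 13.0 (the others 14.11 to 14.19), Ctsk at 5.02 (the others 9.48 to 9.84), Cxcl14 at 4.48 (the others 7.25 to 7.53), Hal at 2.5 (the others 9.0 to 10), Igfbp4 at 10.34 (the others 12.27 to 12.48), Lgals3 at 7.96 (the others 12.12 to 12.78), Pam at 6.93 (the others 9.16 to 9.41), Sdc4 at 4.18 (the others 8.36 to 9.16) and Wdfy1 at 4.75 (the others 7.89 to 8.29). It was high for Dgat2 at 10.27 (the others 5.0 to 5.45), H2-D1 at 10.15 (the others 6.29 to 6.83), H2-K1 at 8.81 (the others 4.92 to 5.26), Nppb at 12.83 (the others 11.07 to 11.16), Pdk1 at 7.15 (the others 4.61 to 5.03), Rpgrip1 at 7.36 (the others 2.88 to 3.01), Stk25 at 5.81 (the others 2.49 to 2.55) and Trim34a at 3.57 (the others 2.12 to 2.18). C57 infarct replicate 1 lay apart from the other C57 arrays for Bub1b at 3.07 (the others 4.29 to 4.49), Ncapg2 at 5.62 (the others 7.08 to 7.36), Nnt at 10.33 (the others 8.19 to 8.51), Oas1a at 6.81 (the others 8.58 to 8.8), Oasl2 at 6.14 (the others 7.09 to 7.2), Rpgrip1 at 7.03 (the others 8.18 to 8.34), Sdc4 at 3.4 (the others 5.64 to 5.92) and Top2a at 5.01 (the others 7.45 to 7.78). Single genes set other arrays apart: Cdkn1a in C57 day 5 infarct replicate 4 at 9.33 (the others 8.45 to 8.56), Cfi in C57 day 5 infarct replicate 2 at 2.47 (the others 2.07 to 2.12), Hal in C57 day 5 infarct replicate 4 at 2.43 (the others 2.57 to 2.6) and Oas1a in MRL day 5 infarct replicate 2 at 5.09 (the others 6.76 to 7.05).

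With all arrays, the MRL minus C57 difference in the infarct region differed between day 5 and day 0, by limma's test of the difference itself, for Il15 (3.95 ± 0.7, adjusted p 0.012), Pttg1 (3.2 ± 0.53, adjusted p 0.0096), Phkg1 (1.84 ± 0.35, adjusted p 0.025), Plekhh1 (-3.49 ± 0.54, adjusted p 0.0038), Fcgr4 (-3.46 ± 0.39, adjusted p 8.3e-05), Ms4a4c (-2.62 ± 0.44, adjusted p 0.0096), Kcnj15 (-1.93 ± 0.33, adjusted p 0.012) and Angpt1 (-1.85 ± 0.28, adjusted p 0.0038). At day 5 it differed between infarct and noninfarct tissue for Serpina1b (-2.66 ± 0.58, adjusted p 0.046), Pcolce2 (-2.35 ± 0.52, adjusted p 0.046), Ms4a4c (-2.2 ± 0.35, adjusted p 0.0013), Galc (-2.04 ± 0.43, adjusted p 0.029) and Fcgr4 (-1.95 ± 0.44, adjusted p 0.05).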

How the results depend on the processing

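The number of probe sets called depended on the fit more than the direction of the named genes did. For infarct tissue at day 5 the count was 88, and 35 with the stricter filter, 0 on the arrays compared alone, 165 on all 46 arrays, 480 with array weights and 302 without the library labelled MRL infarct replicate 3 and C57 infarct replicate 1. Infarct tissue at day 5 had 50 (without C57 day 5 infarct replicate 4) to 310 calls (without MRL day 5 infarct replicate 3) with 1 array left out, among them 52 without MRL day 5 infarct replicate 1, 140 without C57 day 5 infarct replicate 1, 54 without MRL day 5 infarct replicate 2 and 55 without C57 day 5 infarct replicate 3. For the infarct region at day 0 the count was 137, and 90 with the stricter filter, 418 on the arrays compared alone, 210 on all 46 arrays and 715 with array weights. The infarct region at day 0 had 75 (without C57 day 0 infarct replicate 1) to 120 calls (without MRL day 0 infarct replicate 3) with 1 array left out, among them 76 without C57 day 0 infarct replicate 2. For infarct tissue at day 1 the count was 128, and 50 on the arrays compared alone and 275 on all 46 arrays. Infarct tissue at day 1 had 79 (without MRL day 1 infarct replicate 1) to 225 calls (without MRL day 1 infarct replicate 3) with 1 array left out, among them 81 without MRL day 1 infarct replicate 2. For noninfarct tissue at day 5 the count was 154, and 99 with the stricter filter, 23 on the arrays compared alone and 474 with array weights. Noninfarct tissue at day 5 had 101 (without C57 day 5 noninfarct replicate 4) to 479 calls (without C57 day 5 noninfarct replicate 3) with 1 array left out. For the day 5 minus day 0 strain difference the count was 20, and 4 with the stricter filter, 13 on the arrays compared alone, 35 on all 46 arrays, 169 with array weights and 87 without the library labelled MRL infarct replicate 3 and C57 infarct replicate 1. The day 5 minus day 0 strain difference had 12 (without C57 day 0 infarct replicate 3) to 74 calls (without MRL day 5 infarct replicate 3) with 1 array left out, among them 36 without C57 day 5 infarct replicate 1. For the day 5 minus day 1 strain difference the count was 7, and 2 with the stricter filter, 3 with an offset of 32, 3 on the arrays compared alone, 19 on all 46 arrays, 51 with array weights and 55 without the library labelled MRL infarct replicate 3 and C57 infarct replicate 1. The day 5 minus day 1 strain difference had 6 (without C57 day 5 infarct replicate 2) to 49 calls (without MRL day 5 infarct replicate 3) with 1 array left out, among them 17 without C57 day 5 infarct replicate 1 and 14 without MRL day 1 infarct replicate 3. For the infarct minus noninfarct strain difference the count was 18, and 11 with no filter, 0 with the stricter filter, 3 on the arrays compared alone, 65 with array weights, 44 without the library labelled MRL infarct replicate 3 and C57 infarct replicate 1 and 37 without the library labelled MRL infarct replicate 3 and C57 noninfarct replicate 3. The infarct minus noninfarct strain difference had 6 (without MRL day 5 infarct replicate 4) to 42 calls (without MRL day 5 infarct replicate 3) with 1 array left out, among them 7 without MRL day 5 infarct replicate 1, 10 without MRL day 5 noninfarct replicate 1, 10 without C57 day 5 noninfarct replicate 1, 9 without C57 day 5 infarct replicate 2, 11 without C57 day 5 noninfarct replicate 2, 11 without MRL day 5 noninfarct replicate 2, 7 without C57 day 5 infarct replicate 3, 7 without C57 day 5 noninfarct replicate 3, 9 without MRL day 5 noninfarct replicate 3, 7 without MRL day 5 noninfarct replicate 4 and 8 without C57 day 5 infarct replicate 4. The replicate block gave 83 calls in infarct tissue at day 5. Deviations of same-numbered arrays of the 2 strains correlated at -0.38, 0.48, -0.09 and 0.28, and 1 of 4 correlated best with its own number. The arrays were therefore not paired by number. These 4 values include the libraries that stood apart and cannot show whether same-numbered arrays share a batch. Of the 37 named genes called with all arrays, 0 changed direction under the alternatives to the arrays or scaling. On the arrays compared alone 37 lost their call, and with no filter 12 did. Leaving out MRL infarct replicate 1, 2 or 4 ended 15 of the 37 calls each time. Leaving out C57 infarct replicate 1, 2, 3 or 4 ended 3, 12, 13 and 15. Without MRL infarct replicate 3 all 37 kept their call. Of the genes that turned sign when a setting or the arrays changed, 0 were called in that fit or with all arrays. Array weights gave Angpt1 -0.02, Cd68 0.22, Col1a1 0.16, Fn1 0.02, H2-Ea 0.19, Il15 -0.04, Lgals3 0.23, Mki67 -0.21, S100a8 -0.33 and Top2a -0.43. Leaving out MRL replicate 3 and C57 replicate 1 gave Angpt1 -0.03, Cd68 0.31, Col1a1 0.22, Fn1 0.07, H2-Ea 0.15, Il15 -0.16, Lgals3 0.40, Mki67 -0.39, S100a8 -0.61 and Top2a -0.57. Quantile normalization gave H2-Ea 0.01 and Lcn2 0.02. Centring gave H2-Ea 0.02, Lcn2 0.00 and Myh7 0.01. The offset of 32 gave Lcn2 0.04, Myh7 0.03 and Top2a -0.04. Another probe set of the gene had the opposite sign for 7 genes, with 1 of these called, H2-D1 4.47 (adjusted p 0.0083), beside Atp2a2 0.08, Col1a1 0.62, Galc 1.04, Myh6 0.21, Plekhh1 0.10 and Sdc4 -0.93. Ranges over the single arrays left out were Angpt1 -0.05 to 0.10, Atp2a2 -0.36 to 0.09, Cd68 -0.53 to 0.72, Col1a1 -0.30 to 0.32, Col3a1 -0.05 to 0.34, Fn1 -0.55 to 0.15, H2-Ea -0.14 to 0.20, Il15 -0.50 to 0.50, Lcn2 -0.49 to 0.20, Lgals3 -0.77 to 0.84, Mki67 -0.45 to 0.36, Myh6 -0.54 to 0.22, Myh7 -0.67 to 0.53, S100a8 -0.29 to 0.58 and Top2a -0.62 to 0.31; with MRL replicate 3 and C57 replicate 1 both left out, Lcn2 had -0.56 and Myh7 -0.87. Without the library labelled MRL infarct replicate 3, in fits chosen after seeing the data, the other alternatives called 145 (stricter filter) to 587 (array weights) probe sets, and leaving out 1 further array gave 227 to 354. Of the 64 named genes called without that library, 45 kept their call in all 7 such removals, and Bub1b, C1ra, Ccl12, Ctse, Ddr2, Dgat2, Igfbp4, Lrg1, Tmem144 and Trim30a lost it in 4 to 6. The fits on the arrays compared alone had 543 probe sets at an unadjusted p under 0.05 in infarct tissue at day 5, and the stricter filter had 158 for the infarct minus noninfarct difference. The causes of these shifts were not tested. Differences of genes below the array median depend on the offset.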
